A study of Caenorhabditis elegans with 2 samples.

Results

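Worm genes often sit head to tail on 1 strand with little sequence between them, and 3574 such starts were examined here among the 19973 protein-coding starts of the 6 nuclear chromosomes in the Ensembl annotation of WBcel235, the assembly also called ce11. A start was taken when the end of a protein-coding gene on the same strand lay at most 500 bp before it and no protein-coding gene started on the opposite strand within 1000 bp upstream. These are called downstream genes below. Following each chain of such neighbours upstream gave 2624 runs, each opened by a first gene that has no same-strand end within 500 bp before it. The choice used positions alone and no measured value. Most runs, 1964 of 2624, held 2 genes, 462 held 3, 126 held 4, and the longest single run held 9. The distance from the end of one gene to the start of the next, called the gap, had a median of 187.5 bp with quartiles of 103 and 337 bp.

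The measured protein was HMG-1.1, a small chromatin protein with a high mobility group box, a fold that bends DNA with little regard for its sequence. Animals of strain RW12311 carried a CRISPR insertion at hmg-1.1 on chromosome II that fused TY1, EGFP and 3xFLAG tags to the protein, and an antibody against GFP was used for chromatin immunoprecipitation and sequencing. Whole L4 larvae aged 48 hours, synchronised by bleaching and starving L1 larvae, were used, so all tissues are mixed and signal cannot be assigned to a cell type. The 2 biological replicates form 1 group, and no untagged or other condition was analysed here. A site is the summit of a peak in the authors' conservative list, which pools the replicates and was limited by the irreproducible discovery rate, a measure of rank agreement between lists. That list held 4277 peaks, and the replicates' own thresholded lists held 2613 and 3082. They hold no read counts, so the depth is unknown, and all intervals below are 95% intervals for counting error over genes only.

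Part of the nematode genome is organised in operons, in which 1 promoter upstream of the first gene serves several genes. The joint transcript is cut between the genes, polyadenylated, and given a spliced leader at the start of each downstream message, with SL2 as the leader typical of downstream genes. Genes of one operon are typically packed close together, whereas same-strand neighbours farther apart may each have a promoter of their own. Whether a given run is an operon was not measured here. For a trans-spliced gene the annotated start can be the splice site and not the place where transcription began.

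The sequence between the genes is shown for a few closely packed downstream genes, as examples. Of downstream starts with a gap of at most 150 bp, 48.9% directly followed AG. Among those with a site within 500 bp the share was 24.6%. The whole gaps of 3 downstream genes of textbook operons and those of Y39B6A.43 and pafo-1, downstream genes with a site inside the gap, read as follows in 5′ to 3′ direction on the gene's strand, with a final AG directly before the annotated start in capitals. They lie at chrX:3113342-3113442 (minus strand), chrV:15000542-15000650 (minus), chrV:11415160-11415271 (minus), chrV:18967830-18967904 (minus) and chrV:11521555-11521702 (plus) of WBcel235, outside annotated untranslated regions.
gpd-3: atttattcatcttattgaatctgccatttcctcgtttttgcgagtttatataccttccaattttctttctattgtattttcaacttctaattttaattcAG
rps-16: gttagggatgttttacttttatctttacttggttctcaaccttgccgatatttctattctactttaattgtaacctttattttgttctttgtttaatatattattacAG
deg-3: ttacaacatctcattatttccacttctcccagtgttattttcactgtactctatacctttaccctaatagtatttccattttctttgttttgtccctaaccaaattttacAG
Y39B6A.43: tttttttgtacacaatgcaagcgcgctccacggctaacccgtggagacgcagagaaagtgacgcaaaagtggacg
pafo-1: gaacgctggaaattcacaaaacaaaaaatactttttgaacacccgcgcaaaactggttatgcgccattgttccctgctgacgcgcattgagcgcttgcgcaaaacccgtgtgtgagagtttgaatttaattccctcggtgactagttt
The gaps before gpd-3, rps-16 and deg-3 had a GC content of 26.7%, 26.6% and 32.1% and ended in AG, the last bases of a splice acceptor. The gaps of Y39B6A.43 and pafo-1 had 52% and 45.3% GC and did not end in AG. Of the 10 gaps of at most 150 bp that held the strongest site of their downstream gene, only these were printed. pafo-1 was not among the genes picked by the naming rule given below.

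A site lay within 500 bp of 235 of the 3574 downstream starts, or 6.58% (Wilson interval 5.81 to 7.44%). The first genes of the runs had one at 473 of 2624 starts, or 18.0% (16.6 to 19.5%). The share over all protein-coding starts was 9.78%, which lies above the interval of the downstream starts and below that of the first genes. The replicates' own lists gave lower shares with the same order. Downstream starts had a site at 3.72% in replicate 1 and 4.22% in replicate 2, a mean of 3.97 ± 0.356% (SD, n = 2), against 11.4% and 13.5% of the first genes, a mean of 12.5 ± 1.46% (SD, n = 2). Over all protein-coding starts the replicate shares were 6.06% and 7.30%. Starts with neither a same-strand end nor an opposite-strand start nearby, 12860 in all, had a site at 7.27% (6.83 to 7.73%). This interval overlaps that of the downstream starts. The 3539 starts with an opposite-strand start within 1000 bp upstream had a site at 22.2% (20.8 to 23.6%). They count in the 9.78% but are barred from the downstream starts by the rule.

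Within runs, the downstream gene nearest to the first gene was compared with that first gene, 1 pair per run. The downstream gene had a site in 181 of 2624 runs (6.90%) and the first gene in 473 (18.0%). Both had one in 42 runs, the downstream gene alone in 139, and the first gene alone in 431. The difference was −11.1 percentage points, with p = 9.58e-36 in an exact two-sided McNemar test. The first gene alone was also the more frequent outcome in each replicate list, with the downstream gene alone in 83 runs against the first gene alone in 283 in replicate 1, and in 95 against 329 in replicate 2. In all, 11 such comparisons of overlapping sets of runs were made in each list, and adjusted p-values below are over those 11 by the Benjamini-Hochberg method. Runs are loci within peak lists and not replicate worms, and neighbouring runs are not independent, so the p-values are smaller than independent units would give.

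By the rule, downstream starts have no opposite-strand start nearby, but 799 first genes do, and 249 of these (31.2%) had a site. In the 1825 runs whose first gene has no such neighbour, the downstream gene alone had a site in 102 runs and the first gene alone in 200. The difference there was −5.37 percentage points, with p = 1.80e-08 and an adjusted p of 3.96e-08 in the exact McNemar test. In replicate 1 the downstream gene alone had a site in 60 of these runs against 117 for the first gene, and in replicate 2 in 74 against 150.

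The contrast differed between short and wider gaps. In the closely packed runs with a gap of at most 150 bp and a first gene without an opposite-strand start, 696 in all, 5.89% of downstream genes and 18.2% of first genes had a site. The downstream gene alone had one in 32 of these runs and the first gene alone in 118 (exact McNemar p = 8.84e-13, adjusted 2.43e-12). In the 1129 runs of the same kind with a gap over 150 bp, the shares were 7.53% and 8.59%, with the downstream gene alone marked in 70 runs and the first gene alone in 82, a difference of −1.06 percentage points (exact McNemar p = 0.372, adjusted 0.455). The downstream gene held 46.1% of the runs in which only 1 of the pair had a site, with an exact binomial interval of 37.9 to 54.3%, so a difference in either direction lies within it. In replicate 1 the wider runs had the downstream gene alone in 46 and the first gene alone in 44, and in replicate 2 in 55 and 60. The share of unequal runs in which the downstream gene alone was marked was 21.3% at gaps of at most 150 bp against 46.1% at wider gaps, an odds ratio of 0.318 with p = 6.08e-06 in Fisher's exact test, two-sided. The same comparison gave 16.1% against 51.1% in replicate 1 (Fisher's exact p = 7.42e-07) and 17.4% against 47.8% in replicate 2 (Fisher's exact p = 1.20e-06). Against all runs of each class, the first gene alone was marked in 17.0% at short and 7.26% at wider gaps, and the downstream gene alone in 4.60% and 6.20%. The Fisher's test of the difference was added after the shares by gap were seen.

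**Figure D1:**
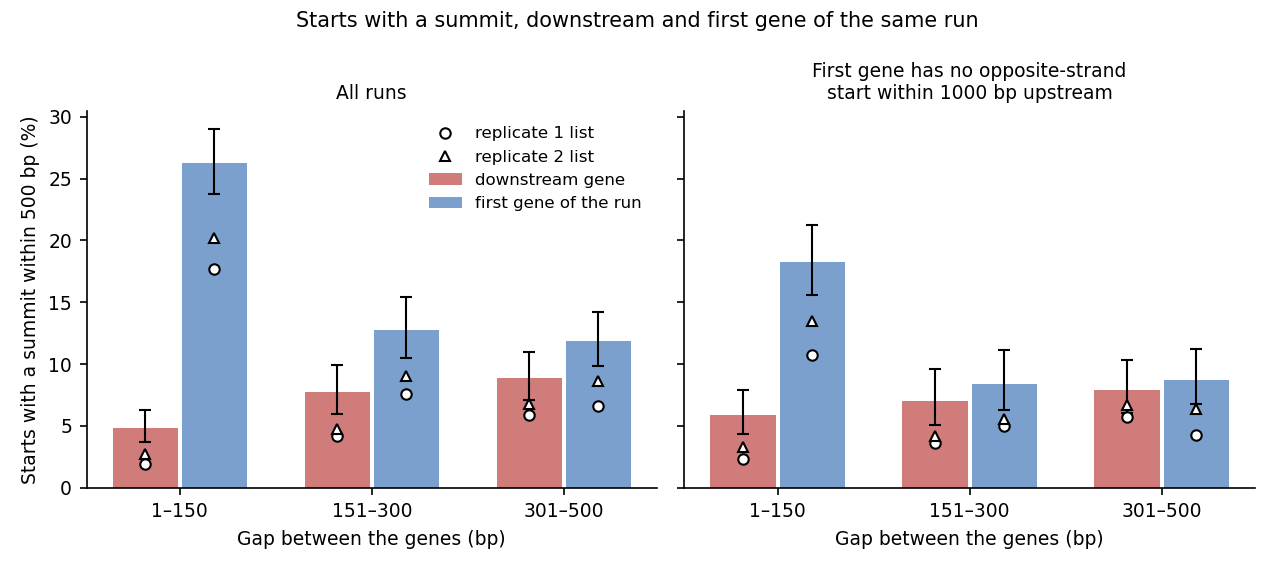
Share of starts with a summit within 500 bp (y axis, percent) at the downstream gene (red, left) and the first gene (blue, right) of the same run, by gap in bp (x axis), for all runs and for runs whose first gene has no opposite-strand start within 1000 bp upstream. Bars are the conservative list with 95% Wilson intervals, circles and triangles the lists of replicate 1 and replicate 2. In the right panel the bars stand at 5.89% and 18.2% at the shortest gaps and at 7.95% and 8.74% at the longest.

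Both kinds of gene varied with the gap. With all runs counted, first genes had a site at 26.3% where the gap was at most 150 bp (short), at 12.8% where it was over 150 and at most 300 bp (middle) and at 11.8% where it was over 300 and at most 500 bp (long). Among all 3574 downstream genes, the share moved the other way, at 65 of 1565 (4.15%, Wilson interval 3.27 to 5.26%) for short gaps, 66 of 912 (7.24%, 5.73 to 9.10%) for middle gaps and 104 of 1097 (9.48%, 7.89 to 11.4%) for long gaps. The replicates gave 1.73%, 3.84% and 6.47% in replicate 1 and 2.30%, 4.17% and 7.02% in replicate 2, so the order was the same in both lists. With all runs counted, the pairs with a long gap had a site at 8.88% of downstream genes and 11.8% of first genes (exact McNemar p = 0.0429, adjusted 0.0590). At the limit of the rule, starts with a gap of 451 to 500 bp had a site at 27 of 257 (10.5%), and starts just outside it, at 501 to 550 bp, at 22 of 227 (9.69%).

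Where in the locus the site lay also differed between close and wide spacing. For each marked start the strongest summit within 500 bp was placed upstream of the gap, in the gap, or downstream of the start. At short gaps, 17 of 65 lay upstream of the gap, 10 in the gap and 38 downstream of the start, with a median position of 39 bp after it. At middle gaps, 53 of 66 lay in the gap, with a median position of −106 bp relative to the start, and at long gaps, 97 of 104 lay in the gap, with a median of −173.5 bp. A longer gap covers more of the window searched, so counts were also set per length. Short gaps held 10 summits in 144.0 kb, or 0.0694 per kb, whereas middle gaps held 53 in 203.9 kb (0.260 per kb) and long gaps held 98 in 435.9 kb (0.225 per kb). These gaps are those of all downstream genes, so they are not matched run by run to the stretches that follow. Where starts share a gap, its summit counts for each. Stretches next to first genes without an opposite-strand start were cut to at most the length of their own run's gap. They were kept outside other protein-coding genes and held 0.301, 0.124 and 0.183 summits per kb in the 3 classes, from 17, 13 and 42 summits. At the shortest gaps the density was thus lower before downstream genes than before such first genes, and at the wider gaps it was higher, and neither difference in density was tested.

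**Figure D2:**
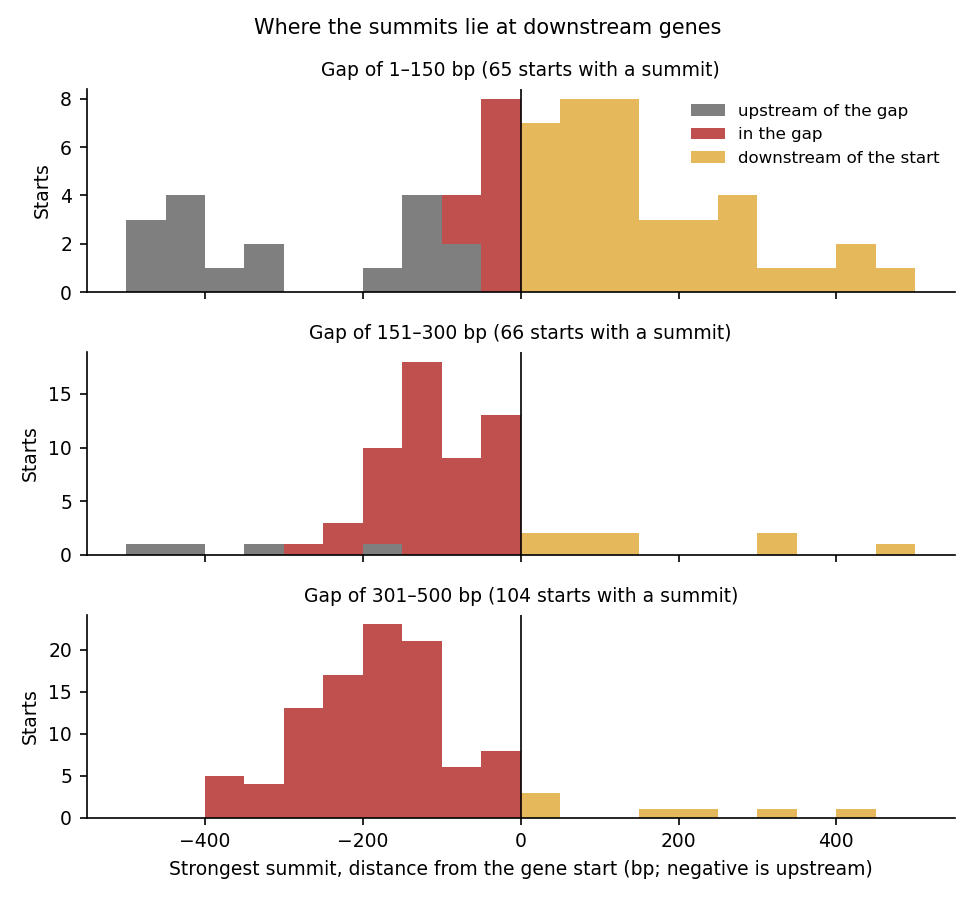
Number of downstream starts (y axis) by the distance of the strongest summit from the start in bp (x axis, negative upstream, 50-bp bins), for 3 gap classes, coloured by whether the summit lay upstream of the gap (grey), in the gap (red) or downstream of the start (yellow). Of the summits, 38 of 65 lay downstream of the start at gaps of at most 150 bp and 97 of 104 lay in the gap at gaps over 300 bp.

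**Figure D3:**
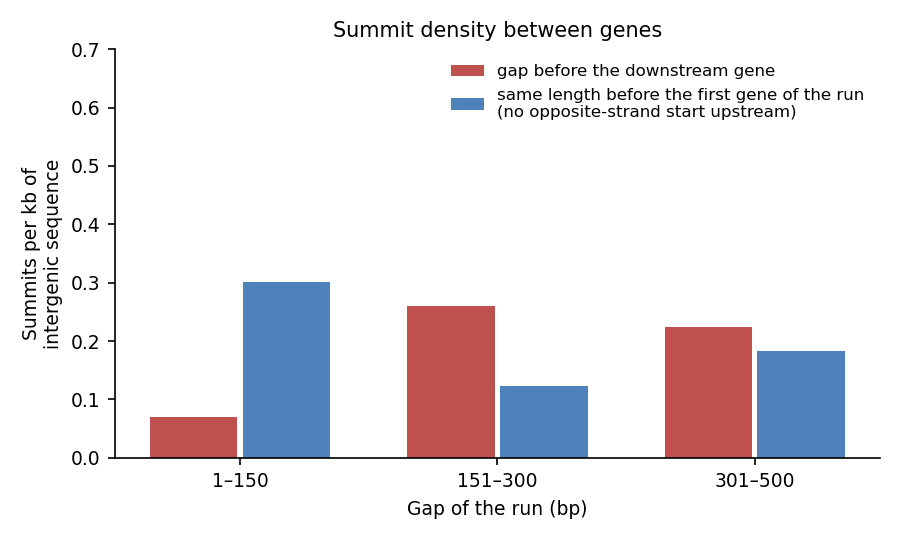
Summits of the conservative list per kb of intergenic sequence (y axis), by gap in bp (x axis). Red bars (left) are the gaps before all downstream genes. Blue bars (right) are stretches of at most the length of the run's gap before first genes that have no opposite-strand start upstream. The bars have no error because the list is 1 pooled call, and at the shortest gaps they stand at 0.0694 and 0.301 per kb.

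Of the strongest sites at the 235 marked starts, 54 lay downstream of the start, and of these 25 fell in an annotated 5′ untranslated region, 18 in an intron and 10 in a coding exon. Of the 21 upstream of the gap, 10 lay in a 3′ untranslated region and 9 in an intron. All but 1 of the 160 in the gap lay outside protein-coding genes of either strand. Over all marked downstream starts the median position was −120 bp relative to the start (quartiles −193.5 and −12), against −200 bp at first genes (−296 and −103). Sites lay upstream of the start in 77.0% of downstream genes and 90.7% of first genes. At first genes without an opposite-strand start upstream, the median was −190 bp and 85.3% of sites lay upstream.

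The strength of the sites was given by the authors' signal, whose scale is not stated and which is compared within 1 list. Downstream sites had a median signal of 109 (51.0 to 687), first-gene sites a median of 130, and the whole list a median of 110. Sites of first genes without an opposite-strand start upstream had a median of 118, and of 80.8 and 83.0 in the lists of replicates 1 and 2. In the replicate lists the medians of downstream and all first-gene sites lay closer. They were 75.8 and 80.1 in replicate 1 (whole list 72.5), and 84.8 and 86.1 in replicate 2 (whole list 77.2). By gap the downstream medians were 96.5, 106 and 130 at short, middle and long gaps. Where both genes of a pair were marked, 42 runs, they shared the strongest summit in 1, the downstream gene had the stronger one in 15 and the first gene in 26. The 235 marked downstream starts rest on 231 distinct peaks, since some share one. At 102 of the 235 starts (43.4%) the peak overlapped one in both replicate lists and at 74 (31.5%) none in either, with median signals of 183 and 77.2. At the 473 marked first genes it overlapped both lists at 257 (54.3%) and neither at 110 (23.3%).

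The strongest downstream sites found in both replicate lists, and with no further gene start close to the summit (500 bp or less), belonged to genes of varied function. mtcu-2, whose product modifies mitochondrial transfer RNA, had a signal of 687, and of 323 and 370 in the lists of replicates 1 and 2. Its gap is 53 bp, and the summit lay at −465 bp relative to its start, in an intron of the upstream gene let-268, under the peak at chrII:10033543-10033829. cmtr-1, a homologue of the methyltransferase of the messenger RNA cap, had a signal of 537 (269 and 264 in the replicate lists) at −138 bp. T13C5.6 followed with 526 (232 and 297) at −183 bp. These 3 sites ranked 33, 57 and 62 among the 4277 peaks, and none of their first genes had a site.

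At col-85, a cuticle collagen gene, the summit (472; replicates 208 and 270) lay 349 bp inside the gene, in an intron, within 500 bp of a transfer RNA gene. At twk-5, a potassium channel gene, it lay 478 bp inside the gene, again in an intron, near the small nucleolar RNA gene B0334.12 (346; replicates 176 and 184). his-37, a histone H4 gene with near-identical copies elsewhere in the genome, so that its reads may not be unique, had a site at −62 bp (435; replicates 175 and 251), and its first gene C50F4.6 was marked as well. Other genes with sites in the gap were uggt-1, a folding sensor of the endoplasmic reticulum (352; replicates 150.8 and 201), dld-1, dihydrolipoamide dehydrogenase (344; 151.3 and 194), fbxl-2 (334; 161 and 170), eif-3.C, a subunit of translation initiation factor eIF3 (334; 161 and 168), unc-16, an adaptor of axonal transport (315; 132 and 174), and dnj-9, a DnaJ co-chaperone (311; 136 and 173). eelo-2 (440; 235 and 203) and C34C12.8 (315; 122 and 183) complete the group with Y39B6A.43, whose signal was 398 (161 and 234). Of the 15, 13 had gaps above 150 bp and the exceptions were mtcu-2 and Y39B6A.43, with gaps of 53 and 76 bp. Non-coding genes lay within 500 bp of 6 of the 15 summits: a small nucleolar RNA gene at cmtr-1 and twk-5, a transfer RNA gene at col-85, and genes annotated as non-coding RNA at T13C5.6, dld-1 and unc-16.

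**Figure D4:**
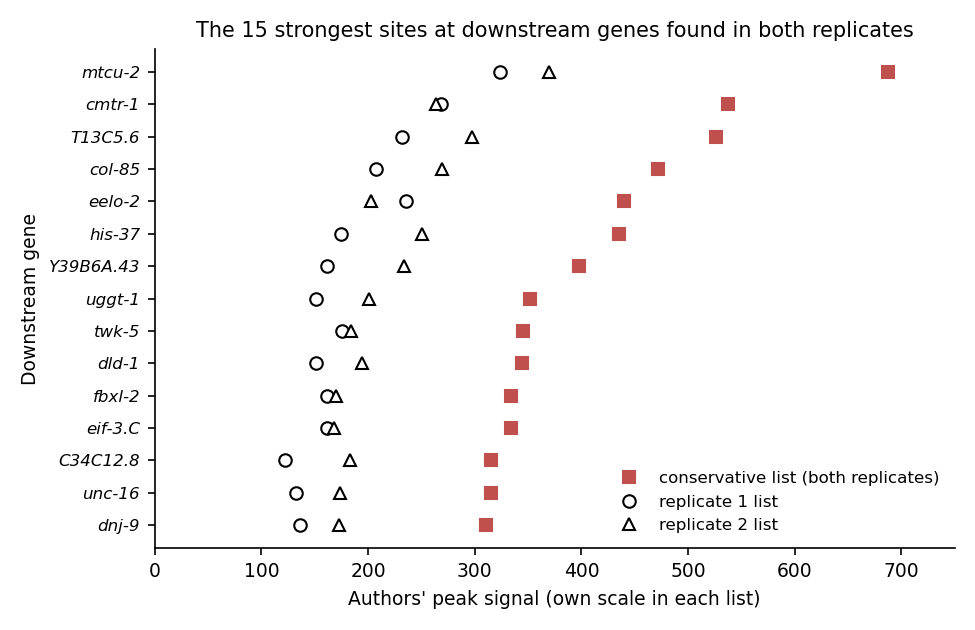
Authors' peak signal (x axis, each list on its own scale) at the 15 strongest downstream genes found in both replicate lists (y axis, strongest at the top). Squares are the conservative list, circles replicate 1 and triangles replicate 2, and mtcu-2 leads with 687, 323 and 370.

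Windows of 61 bp centred on summits in the gap show the sequence under these sites. They are given in 5′ to 3′ direction on the gene's strand, with the 11 bases around the summit in capitals, from chrII:15025946-15026006 (plus), chrX:6207840-6207900 (minus), chrX:7501143-7501203 (minus) and chrIII:4757155-4757215 (plus).
cmtr-1: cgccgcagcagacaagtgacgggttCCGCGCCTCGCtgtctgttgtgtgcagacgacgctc
T13C5.6: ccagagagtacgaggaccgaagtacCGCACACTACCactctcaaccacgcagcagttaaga
uggt-1: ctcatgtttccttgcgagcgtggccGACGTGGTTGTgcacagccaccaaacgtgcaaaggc
fbxl-2: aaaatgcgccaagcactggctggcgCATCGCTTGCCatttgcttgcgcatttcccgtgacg
Their GC content was 65.6%, 54.1%, 59.0% and 57.4%. The windows of another 4 strong sites, eelo-2, his-37, dld-1 and C34C12.8, had 50.8%, 52.5%, 50.8% and 54.1%, so the printed set leans to the GC-rich end. Over whole gaps, those of 21 to 150 bp that held a site had a median GC content of 45.9% (n = 10), against 28.9% where no site lay within 500 bp. The corresponding medians were 35.6% and 33.5% at middle gaps and 34.6% and 32.3% at long gaps. In the 500 bp around the start the medians were 36.8% at marked and 34.2% at unmarked downstream genes, against 35.6% at all first genes. The part of base composition in the shares was not tested.

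Splice acceptors at the start, which the choice of genes did not use, were counted next. The hexamer TTTCAG, the worm acceptor sequence, was searched in the 50 bp before each start on the gene's strand. It was present at 18.0% of downstream starts, 20.9% of first genes and 17.4% of all protein-coding starts, and on the opposite strand at 3.36% of downstream starts. At long gaps it was found at 38 of 104 marked starts (36.5%) against 14.3% of unmarked ones. At middle gaps it was found at 21.2% of marked and 12.4% of unmarked starts. At short gaps it was found at 11 of 65 marked starts (16.9%) against 22.3% of unmarked ones. Marked first genes had the hexamer at 31.5%. The last bases before the start were AG at 48.9% of downstream starts with a short gap, 24.5% with a middle gap and 26.2% with a long gap, against 27.6% of all protein-coding starts. At short gaps, 16 of 65 marked starts (24.6%) and 49.9% of unmarked starts ended in AG. At middle gaps it was 45.5% of marked against 22.8% of unmarked starts, and at long gaps 52 of 104 marked starts (50%) against 23.7% of unmarked ones. Marked first genes followed AG at 52.9%. The count of AG was added after the gaps had been read, and neither motif was tested. The polyadenylation signal AATAAA occurred in the 300 bp before 49.0% of downstream starts, 33.1% of first genes and 34.5% of all starts on the gene's strand, and on the other strand before 55.2%, 46.9% and 45.5% of them.

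Textbook operons gave single cases. In the pair fib-1 and rps-16, the downstream gene rps-16, a ribosomal protein gene, had no site, whereas fib-1, which encodes fibrillarin, had one at −109 bp with a signal of 243, found in both replicate lists. In the pair mev-1 and ced-9, the cell death inhibitor gene ced-9, which starts 4 bp after the end of mev-1, had no site within 500 bp, and mev-1, a subunit of succinate dehydrogenase, had one at −103 bp with a signal of 265, in both replicate lists. gpd-3 had a site 256 bp inside the gene with a signal of 96.5, in replicate 1's list and not in replicate 2's, and gpd-2 had none. In replicate 1's list the signal at gpd-3 was 11.4, the lowest of the downstream sites there, whose median was 75.8. The genes gpd-2 and gpd-3 both encode glyceraldehyde-3-phosphate dehydrogenase and are near-identical, so reads may be shared between them. The acetylcholine receptor subunit genes deg-3 and des-2 had no site at either start.

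The strongest sites of first genes whose downstream genes had none were at tasp-1 (signal 939; replicates 434 and 496), the ribosomal protein gene rpl-15 (728; 324 and 395) and drr-2, a homologue of translation factor eIF4H (701; 316 and 374). The list went on with 1 summit shared by the chaperonin subunit gene cct-8 and Y55F3AR.2 (669), the exocyst subunit gene sec-15 (544) and 1 shared by ska-3 and rps-12 (491). All 8 of these first genes have an opposite-strand start within 1000 bp upstream.

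Gene families, listed by gene name, differed in how their downstream and first members were marked. Of ribosomal protein genes, 1 of 9 downstream genes (rps-7, signal 167, gap of 479 bp) had a site, against 22 of 28 first genes (78.6%). The downstream count was 1 in replicate 1's list and 3 in replicate 2's, where rla-1 and rps-17 were marked. Of mitochondrial ribosomal protein genes, 0 of 27 downstream genes had one, with a Wilson upper limit of 12.5%, against 7 of 16 first genes (43.8%). Translation factors had 1 of 7 against 6 of 14, and chaperone genes 2 of 11 against 6 of 12. Respiratory chain and ATP synthase genes, listed by names beginning with nuo, cox, atp or sdh, had 3 of 11 against 4 of 6. In the lists of replicates 1 and 2, 1 and 2 of these downstream genes had a site. In this group sdha-1 had a gap of 424 bp, with the site in the gap (211; replicates 91.5 and 127). The sites of nuo-2 and atp-4, with gaps of 20 and 96 bp, lay upstream of the gap in a 3′ untranslated region. Respiratory chain genes with other names were not counted. Of these, the downstream genes ucr-2.2, cyc-1 and nduf-11 had sites in both replicate lists (signals 294, 215 and 129). The downstream gene ucr-11, with a gap of 102 bp, had no site in any of the lists. These genes are examples, and the share marked among all such genes is not known. Proteasome genes went the other way in number, with 3 of 7 downstream genes (rpn-11, rpn-13 and pbs-3) against 1 of 8 first genes. These are counts in lists of unequal size with different gaps, read beside the background of 9.78%, and were not tested. Over all families, downstream starts had a site at 6.58% and first genes at 18.0%. The first genes counted here include those with an opposite-strand start upstream, which the rule bars from downstream genes. Among all first genes of that kind the share was 31.2%.

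Shares by position in the run had overlapping intervals. Genes in place 2 of their run had a site at 6.88% of 2629 starts, those in place 3 at 5.38% of 651 and those in place 4 or later at 6.46% of 294 (Wilson intervals 5.98 to 7.92%, 3.89 to 7.39% and 4.18 to 9.87%). At gaps over 150 bp the shares were 8.32%, 8.28% and 10.5%, and at short gaps 4.82%, 2.46% and 3.11%. More than 1 marked downstream gene was rare, with 6 runs holding 2 and 3 runs holding 3. In the run of C53H9.2, neither the first gene nor rpl-27 after it was marked, whereas egl-30, the Gq alpha subunit gene, and C53H9.4, annotated within it, shared a summit of 476 in both replicate lists, and emr-1, encoding emerin, had its own of 101. In the run of sgo-1, the unmarked first gene was followed by unmarked ntp-1 and C33H5.13, with gaps of 48 and 86 bp. The splicing factor gene rsp-6 (gap of 475 bp, signal 102), imp-3 (234 bp, 134) and tag-322 (443 bp, 107) then each had a site, and tag-321, sec-10 and rpap-3 had none. None of the sites at rsp-6, imp-3 and tag-322 was in replicate 2's list, and that of tag-322 was in neither replicate list. In the run of zhit-3, 3 downstream genes shared 1 summit with a signal of 77.1, which neither replicate list held.

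By chromosome, downstream shares ran between 4.57% on V and 9.40% on X, with 9.002% on I. Over all protein-coding starts the shares were 6.09% on V, 11.3% on X and 14.1% on I, so downstream shares lay below their own chromosome's share on each of the 3. These chromosome shares include starts with an opposite-strand start upstream, which the rule bars from the downstream starts. On X, 25 of 266 downstream starts (Wilson interval 6.45 to 13.5%) and 36 of 216 first genes (16.7%, 12.3 to 22.2%) had a site. On the autosomes together it was 6.35% (5.57 to 7.23%) of downstream starts and 18.1% (16.7 to 19.7%) of first genes. The share over all autosomal starts was 9.55%. Downstream starts made up 9.74% of the genes on X, against 19.2% on autosomes, and 38.3% of them on X had a short gap, against 44.2%. The downstream gene alone was marked in 20 runs on X and the first gene alone in 32, against 119 and 399 on autosomes. The intervals for downstream starts on X and the autosomes overlap, and the difference was not tested.

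**Figure D5:**
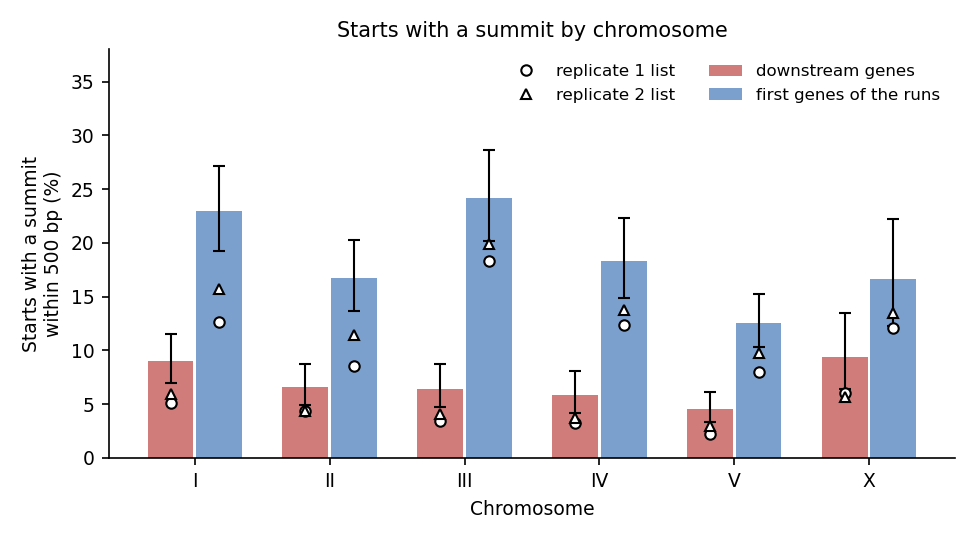
Share of starts with a summit within 500 bp (y axis, percent) at downstream genes (red, left) and first genes (blue, right) by chromosome (x axis). Bars are the conservative list with 95% Wilson intervals, circles and triangles the lists of replicate 1 and replicate 2, and downstream shares lie below first-gene shares on all 6 chromosomes, at 9.40% and 16.7% on X.

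Peaks of any rank, the thresholded ones included, were also counted. In the authors' ranked list of 84052 peaks for both replicates together, a summit of any rank lay within 500 bp of 56.6% of downstream starts, 61.0% of first genes and 55.0% of all protein-coding starts. With more than 50% of starts near such a summit in each group, its presence separates starts poorly. The best summit there had a median rank in the top 29.2% of the list at downstream starts and in the top 16.7% at first genes. At all protein-coding starts it was in the top 26.1%. First genes without an opposite-strand start upstream had a summit of any rank at 57.0%, with a median rank in the top 24.9%. Downstream starts with a short gap had such a summit more often than those with wider gaps, at 60.7% against 53.4%, but its median rank was lower, at the top 30.5% of the list against the top 27.2%. Non-coding genes lay within 500 bp of the summit at 34 of the 235 marked downstream starts (14.5%) and 83 of the 473 marked first genes (17.5%), including 8 and 10 small nucleolar RNA genes and 4 and 8 transfer RNA genes.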

How the data were processed

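Peak lists on ce11 (WBcel235) were used: 1 ranked and 1 thresholded list per replicate, and 2 of each for the replicates combined. The aligner and the peak caller are not given in the sources at hand. Per the file listing deposited with the samples, the lists derive from the replicate and control alignments and, for thresholded lists, 1 further undescribed file. The authors deposited 4 kinds of value per peak. The authors' score rescales the IDR, and the conservative list starts at 830. The signal deposited by the authors has no stated scale and was used within a list. The −log10 of the q-value and, in ranked lists, of the global IDR were deposited by the authors, and 16.4% of conservative peaks have a q-value above 0.05. The summit offset, deposited by the authors, was turned into a 1-based coordinate. Another 4 columns of second signals in the combined ranked lists were not used.

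The annotation was Ensembl release 115. Sequences were read from the RefSeq genome of the same build, whose chromosome lengths were equal. A start is the outermost annotated 5′ end. The member rule and gene lists were chosen with earlier results of these data known. Genes named are, by rule, the 15 strongest downstream sites in both replicate lists with no further start nearby, the 10 strongest of these whose first gene is unmarked, the 8 strongest first genes in runs without a marked downstream gene, the 3 runs with most marked genes, textbook operon genes, and up to 3 per family. Genes named outside this rule include pafo-1, rla-1, rps-17, ucr-2.2, ucr-11, cyc-1 and nduf-11. Pairs were tested with the exact McNemar test and gap classes with Fisher's exact test, at a threshold of 0.05. The functions were tested on simulated runs. Python 3.11.15, numpy 2.4.6, pandas 2.3.3, scipy 1.17.1 and matplotlib 3.10.9 were used. Alternatives were the other combined list, stricter peak limits, single replicates, distances of 250 and 1000 bp, and other pairings.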

Additional observations from a re-analysis of the deposited data

Results flagged for a closer look

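In runs whose first gene has no opposite-strand start upstream, the downstream gene alone was marked in 32 runs and the first gene alone in 118 at gaps of at most 150 bp, against 70 and 82 at wider gaps. The split of unequal runs differed between the 2 gap classes, with 21.3% against 46.1% of them held by the downstream gene (Fisher's exact test, two-sided, p = 6.08e-06). Set against all runs of each class, the first gene alone was marked in 17.0% of 696 runs against 7.26% of 1129, and the downstream gene alone in 4.60% against 6.20%, so the first genes differed more between the classes than the downstream genes did. Each replicate list gave the same direction, at 16.1% against 51.1% and 17.4% against 47.8%. GC content of the gap and the share of starts that directly follow AG also differed between marked and unmarked starts within the gap classes, and their part in this difference was not tested.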

How the results depend on the processing

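The share of marked starts moved with the list and distance. The difference between downstream and first genes was below 0 in the 18 alternatives run on it and past the threshold of the exact McNemar test in 17 of them, 1 of which, a global IDR of 0.01, is the list's own limit and could change nothing. At gaps over 150 bp with no opposite-strand start before the first gene, a setting added after seeing the data, the difference was −1.06 percentage points (exact p = 0.372), and the cause was not tested. Within these runs it was short of the threshold at middle and at long gaps too (exact p = 0.464 and 0.665), and its sign was not kept in the replicate lists, at 0.177 points in replicate 1 and −0.443 in replicate 2, with 1.43 and 0.318 points at long gaps. Over all runs, the difference without 1 replicate lay between −8.92 and −7.62 points. The shares of downstream and first genes were 6.07% and 16.5% at a q-value of at most 0.05. With the global IDR limited to 0.001 (added after seeing the data) they were 3.72% and 12.04%. For peaks above the median signal they were 3.19% and 11.3%. Within 250 bp the shares were 5.18% and 10.9%, and within 1000 bp 8.62% and 22.8%. Without summits near non-coding genes they were 5.71% and 15.1%. Summits near only piRNA or antisense RNA genes were kept in that setting. At gaps of at most 150 bp the shares were 4.15% and 25.5%. The second value there covers the first gene of every run that holds such a gap anywhere. Giving each summit to its nearest start alone left first genes at 13.6%. Without 1 replicate the shares lay between 3.72% and 4.22% for downstream and between 11.4% and 13.5% for first genes, the median downstream position between −139 and −137 bp, and the percentile of the median downstream signal in its list between 53.9 and 56.9, against 48.7 in the conservative list. No pairing of samples was possible because they form 1 group. Read depth is unknown, so an unmarked start may be a site below detection, and whole larvae mix tissues.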

Other observations

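Large gene families that sit in tandem made up part of the downstream genes without sites. Chemoreceptor genes of the sr and str families, which encode receptors of sensory neurons, had a site at 0 of 201 downstream starts (Wilson upper limit 1.88%) and at 1 of 170 first genes, and 177 of those 201 had a gap over 150 bp. With them left out, downstream shares were 4.22% at gaps of at most 150 bp, 7.79% at gaps over 150 and at most 300 bp, and 10.6% at gaps over 300 bp. F-box and MATH domain genes, another set of expanded families, had a site at 2 of 71 downstream starts, fbxa-128 and fbxb-72, and at 0 of 49 first genes. Each replicate list marked 1 of the 71. Cuticle collagen genes had one at 2 of 23 downstream starts, col-85 and col-129, and at 0 of 17 first genes. The 8.70% of downstream collagen genes lies near the 6.58% of all downstream starts and the 9.78% of all protein-coding starts. The F-box and MATH share of 2.82% is read beside the same background. None of these family counts was tested.

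Of the genes looked up as textbook operon genes, lin-15B and lin-15A were in no run by the rule. lin-15B had a site at −410 bp with a signal of 73.7 in replicate 2's list and not in replicate 1's, and lin-15A had none. The list also held mai-2, which lies on another chromosome than gpd-2 and gpd-3, and is in no run. Its place among textbook operon genes is in doubt, and it is not read as one.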
